A study of Mus musculus with 32 samples.

Results

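The clustered protocadherins are cell-surface adhesion genes of 3 kinds, alpha, beta and gamma, that stand in a row on mouse chromosome 18. Their 58 members, of 50600 genes in the tables, were chosen by gene symbol alone: 14 Pcdha, 22 Pcdhb and 22 Pcdhg genes. The family was taken up because Pcdhgb2 had differed between females and males with intact Cdh1 in earlier results of these data. Levels in that comparison are therefore given as a description, with no test.

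Bulk RNA of 32 primary mouse melanomas was sequenced from polyadenylated, stranded libraries, 8 tumours for each combination of genotype and sex. All mice carried Tyr::NrasQ61K, an NRAS oncogene under the melanocyte promoter of tyrosinase, had lost 1 copy of the tumour suppressor Cdkn2a (Cdkn2a-/+), and carried floxed Cdh1, the gene of E-cadherin (Cdh1F/F). Ecad mice, marked °/° in the labels, kept Cdh1, whereas ΔEcad mice also carried a Cre recombinase under the Tyr promoter, which deletes Cdh1 in melanocytes but not in the other cells of a tumour. The labels write Tyr::NRAS/° where the methods of the study name this Cre, and they give no age of the mice. Libraries held between 24036333 and 63923086 counts. In bulk tumours, fewer cells of a type and less RNA per cell cannot be told apart.

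Protocadherins are best known from neurons, where each cell expresses a few of the variable members. Each variable member has its own promoter, and the choice among promoters involves the insulator protein CTCF, cohesin and DNA methylation. In the alpha and gamma clusters, every member joins its own large exon, which codes for the extracellular cadherin repeats, to constant exons that all members of the cluster share. Beta genes consist of a single coding exon. The C-type members (Pcdhac1, Pcdhac2, Pcdhgc3, Pcdhgc4 and Pcdhgc5) sit at the ends of the alpha and gamma clusters and are regulated apart from the variable members. The proteins bind the same isoform on a neighbouring cell, so that the isoforms in use give a cell its surface identity.

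This structure limits what gene counts can say. On GRCm38, the alpha genes lie between 36930184 and 37187661 of chromosome 18, the beta genes between 37264938 and 37524479, and the gamma genes between 37661793 and 37841873, all on the plus strand. By the GENCODE M21 annotation, the share of a gene's exon bases that no other gene on the same strand covers had a median of 100% in the beta cluster but only 55.3% in the gamma cluster (range 33.2 to 68.5%) and 46.5% in the alpha cluster (median over 14 genes). Reads on shared constant exons cannot be assigned to 1 member, and gamma genes near 0 counts beside abundant ones in the same tumour show that such reads were not added to every member. The gene length behind the deposited TPM (a transcript level scaled for gene length and library total) was nonetheless the whole exon length, at 0.995 to 1.00 times that length in the 42 members with enough counts to tell. TPM therefore understates gamma and alpha genes against beta genes, and levels between clusters are also given as CPM per kilobase of unshared exon. Pcdhga10 has no base free of other genes once the opposite strand is considered (0 of 4732), yet it held 2725 counts over the tumours, whereas 2613 of its bases are free on its own strand. Stretches of 100 bases were compared within the unshared exon part only, leaving out the constant exons. Of these stretches, 9.80% in Pcdhgb2 and 9.63% in Pcdhgb1 also occurred in other genes, at most 2.24% in any beta gene and none in Pcdhgc3. Reads of Pcdhgb1 and Pcdhgb2 are therefore less certain than those of most members. The symbol Pcdha11 stands for 2 genes, which are told apart by their identifiers.

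A few libraries stood apart. The library labelled ΔEcad male 2 had 0 counts over 4 Y-linked genes, against 1459 to 8800 in the other males, and 6.41 TPM of Xist, the RNA of the inactive X chromosome, against 0.20 TPM or less in every other male. The library labelled ΔEcad female 1 had 92 counts over the Y-linked genes, and the remaining females at most 4. ΔEcad male 7 was low in melanocytic genes, with a score (the mean over 7 genes of log2 CPM, counts scaled to library size) of 0.961, against 8.12 to 11.6 in all other tumours. It also had the highest score of fibroblast genes, 10.3, and of neuronal genes, 0.377. ΔEcad female 3 had the lowest scores of endothelial (-3.55) and macrophage genes (0.218). Keratinocyte genes varied widely within and between groups. The summed level of 6 keratinocyte genes had a median of 6050 TPM in ΔEcad females (range 1.67 to 32350), 4092 TPM in Ecad males (1.23 to 21870), 433.5 TPM in ΔEcad males (1.51 to 14030) and 1.32 TPM in Ecad females (0.090 to 1695). The 7 neuronal markers summed to at most 9.36 TPM in every tumour but ΔEcad male 7, where they reached 263.9 TPM, and Elavl4 was at 0 in all Ecad males and all ΔEcad females.

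The 3 clusters were used in different ways. The alpha cluster was nearly silent, with a median sum of 0.11 TPM over the 32 tumours, 13 of its 14 members never reaching 1 TPM and only 4 tumours holding 100 or more alpha counts. The beta cluster was on in every tumour, at 14.5 to 156.3 summed TPM (median 46.0). Most tumours used most of its genes at once, and 16 to 22 of the 22 had more than 3 counts. By the same count the gamma cluster had 15 to 22 of 22 genes, except for 6 in ΔEcad male 1. Detection at this level therefore did not separate the beta from the gamma cluster. The gamma cluster summed to a median of 66.5 TPM, with a range of 1.48 to 263.4 TPM. On the scale of CPM per kilobase of unshared exon, the gamma cluster summed to a median of 43.8 and the beta cluster to 17.9. The map of all 58 genes in all tumours shows 1 dark row, Pcdhgc3, a broad band of beta genes and scattered single squares among the gamma A and B genes.

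**Figure D1:**
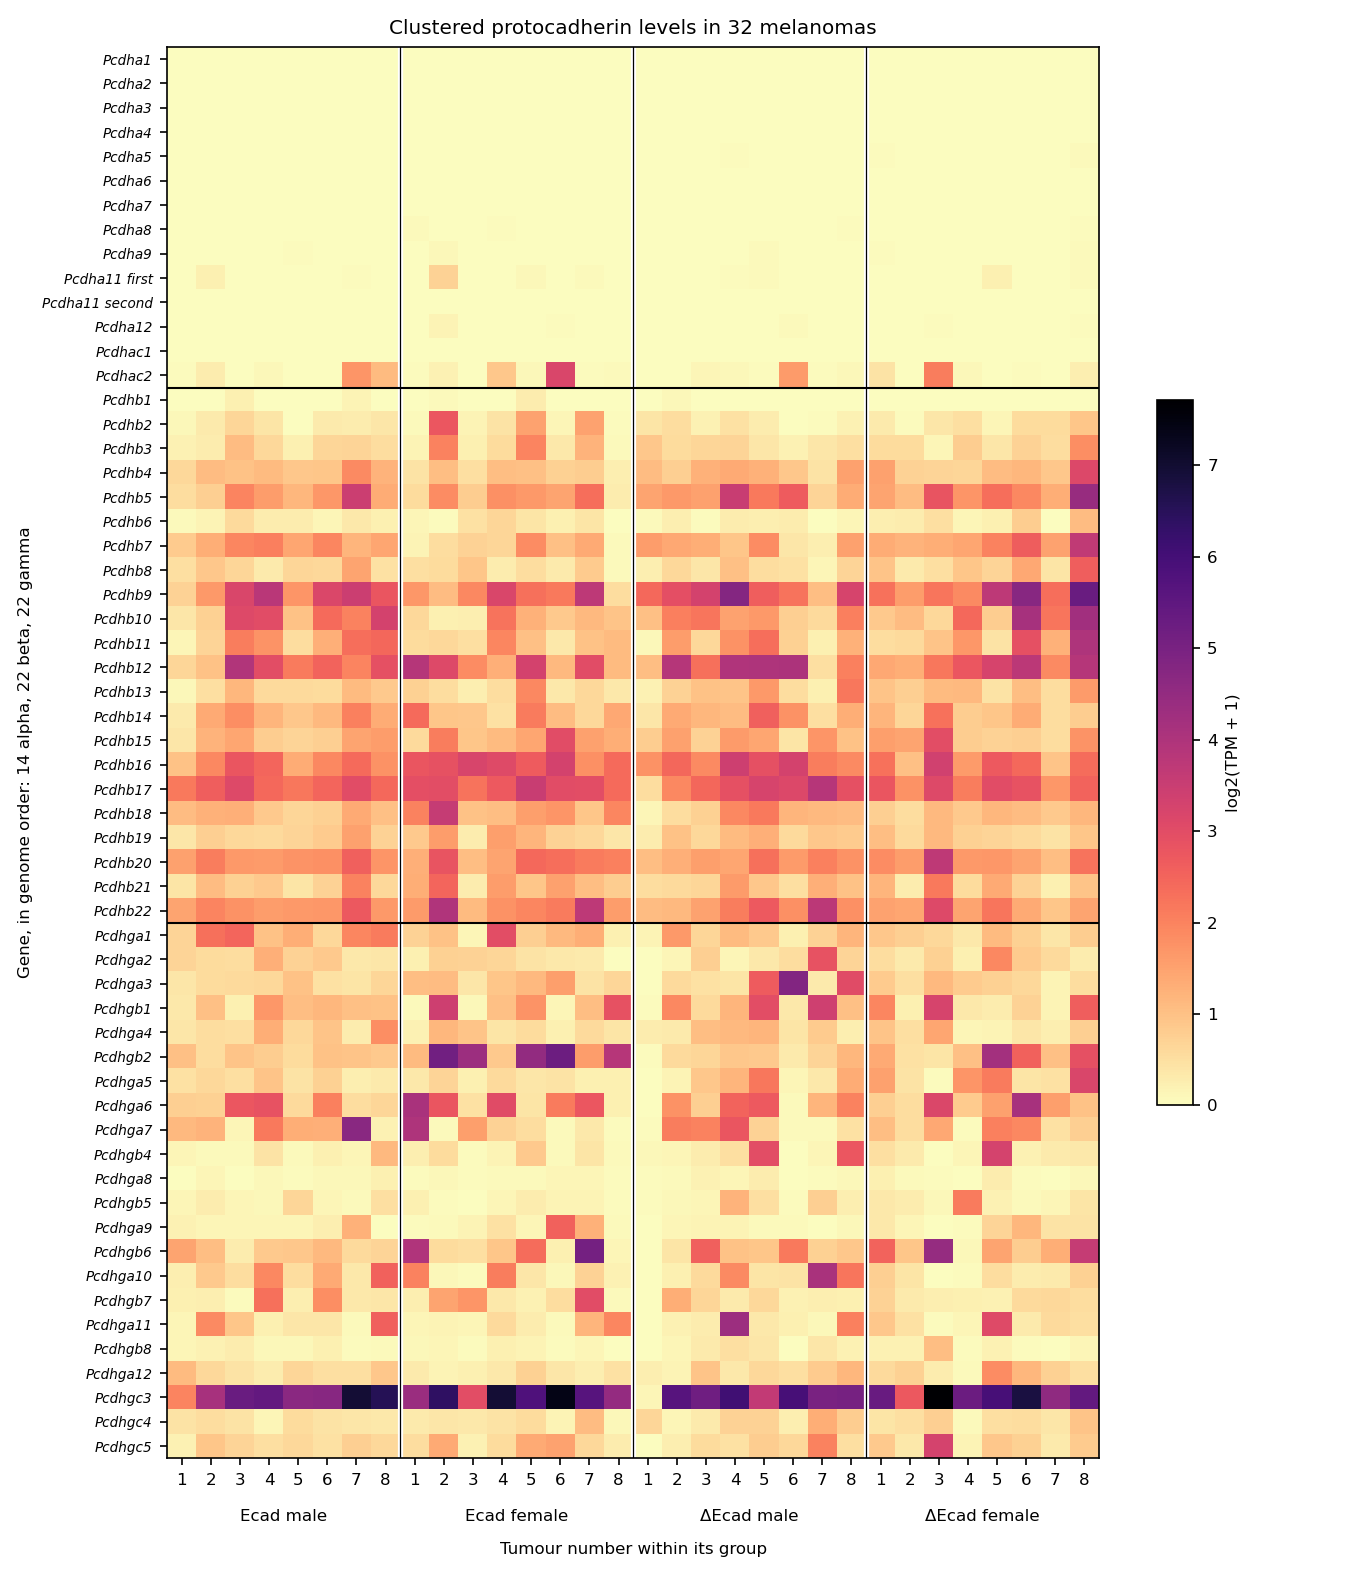
Levels of the 58 clustered protocadherins (rows, in genome order) in 32 tumours (columns, by group and tumour number), as log2(TPM + 1). The alpha rows are near 0 except Pcdhac2, most beta rows are on in most tumours, and Pcdhgc3 is the darkest row in 30 of the 32 tumours within the gamma cluster.

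The C-type members carried the alpha signal where it was above 100 counts and, in most tumours, the larger part of the gamma signal. Pcdhgc3, which is expressed in many tissues beyond the nervous system, was the gamma gene with the highest level in 30 of 32 tumours and held at least 50% of the gamma sum in 21 of them. It stood at 16.3, 38.1, 41.7, 24.3, 25.2, 123.8 and 93.7 TPM in Ecad males 2 to 8 and 2.97 TPM in Ecad male 1. The lowest, median and highest levels of Pcdhgc3 were 5.59, 40.1 and 209.4 TPM in ΔEcad females, 0.090, 33.2 and 67.0 TPM in ΔEcad males, and 6.82, 52.2 and 167.7 TPM in Ecad females. The groups overlapped, with every group median between 31.6 and 52.2 TPM. The 2 tumours in which another gamma gene was higher were Ecad female 3, led by Pcdhgb2, and ΔEcad male 1, led by Pcdhgc4.

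Pcdhgc4 and Pcdhgc5, the neighbours of Pcdhgc3 and the C-type genes best known from neurons, were far lower, with medians of 0.34 and 0.53 TPM. Pcdhgc4 stayed between 0.060 and 1.46 TPM in all tumours. Pcdhgc5 reached 8.59 TPM in ΔEcad female 3 and 2.98 TPM in ΔEcad male 7, and at most 1.79 TPM elsewhere. Pcdhac1 had a single count over all 32 tumours.

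Pcdhac2 was the only alpha gene with more than 100 counts in any tumour, and it held 96.7 to 99.4% of the alpha sum in the 4 tumours with at least 100 alpha counts. Ecad female 6 had 8.13 TPM of it (717 counts), ΔEcad female 3 had 3.26 TPM, and it was at 2.24 TPM in Ecad male 7 and 2.03 TPM in ΔEcad male 6. These 4 tumours came 1 from each group. Of the others, Ecad male 8 had 1.16 TPM, Ecad female 4 had 0.85 TPM and the remaining 26 had at most 0.34 TPM, including 5 at 0 counts, which allows up to 3 counts. In tumours with fewer alpha counts other genes could come first, as in Ecad female 2, where the first of the 2 Pcdha11 genes (ENSMUSG00000007440) was at 0.65 TPM and held 64.4% of the alpha sum (43 alpha counts in all). Pcdha8, Pcdha9 and Pcdha12 stayed at or under 0.12 TPM, and Pcdha1, Pcdha2, Pcdha4 and Pcdha6 had no count in any tumour.

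In the beta cluster no gene held 50% of the sum, or even 33%, in any tumour. The highest share was 31.5%, of Pcdhb17 in ΔEcad male 7, and the lowest first share 11.7%, in ΔEcad female 2. An effective number of isoforms, the inverse of the summed squared shares, was 9.91 for beta genes in the median tumour, with a range of 4.90 to 14.2. By group its median was 11.0 in ΔEcad females, 10.8 in Ecad males, 9.34 in Ecad females and 8.62 in ΔEcad males. The 5 genes with the highest medians were Pcdhb17 (5.66 TPM), Pcdhb12 (4.32 TPM), Pcdhb16 (4.24 TPM), Pcdhb9 (4.21 TPM) and Pcdhb20 (2.24 TPM). They varied to unequal degrees. Pcdhb16 and Pcdhb17 were at most 2.30 and 2.34 times their medians in any tumour, whereas Pcdhb9 reached 37.8 TPM in ΔEcad female 8, 26.7 TPM in ΔEcad male 4 and 25.5 TPM in ΔEcad female 6, which is up to 9.0 times its median.

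Pcdhb9 was the highest beta gene in 12 tumours, Pcdhb17 in 7, Pcdhb12 in 6, Pcdhb16 in 3 and Pcdhb22 in 2. All 3 tumours with Pcdhb16 on top and both with Pcdhb22 on top were Ecad females, but in Ecad female 8 Pcdhb16 and Pcdhb17 were tied at 4.24 TPM and the tumour was counted for Pcdhb16. Pcdhb12 ran from 0.41 to 15.2 TPM and reached 10 TPM in 8 tumours, which came from all 4 groups. Pcdhb22 reached 14.5 TPM (Ecad female 2), 12.4 TPM (ΔEcad male 7) and 12.2 TPM (Ecad female 7), against 0.90 to 7.49 TPM in the remaining tumours.

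The gamma A and B genes, the 19 variable members, behaved differently from the beta genes. Each was low in the median tumour, at 0.055 to 1.59 TPM, and 13 of them reached 5 TPM in at least 1 tumour. The highest tumour stood at a median of 27.8 times the gene's own median, against 6.36 times in the 21 beta genes with more than 3 counts in at least 16 tumours, and it exceeded 10 times the median in 13 of 19 gamma A and B genes and in 4 of those 21 beta genes. The plot of the highest against the median level shows the separation. These shares describe the same tumours and were not tested.

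**Figure D2:**
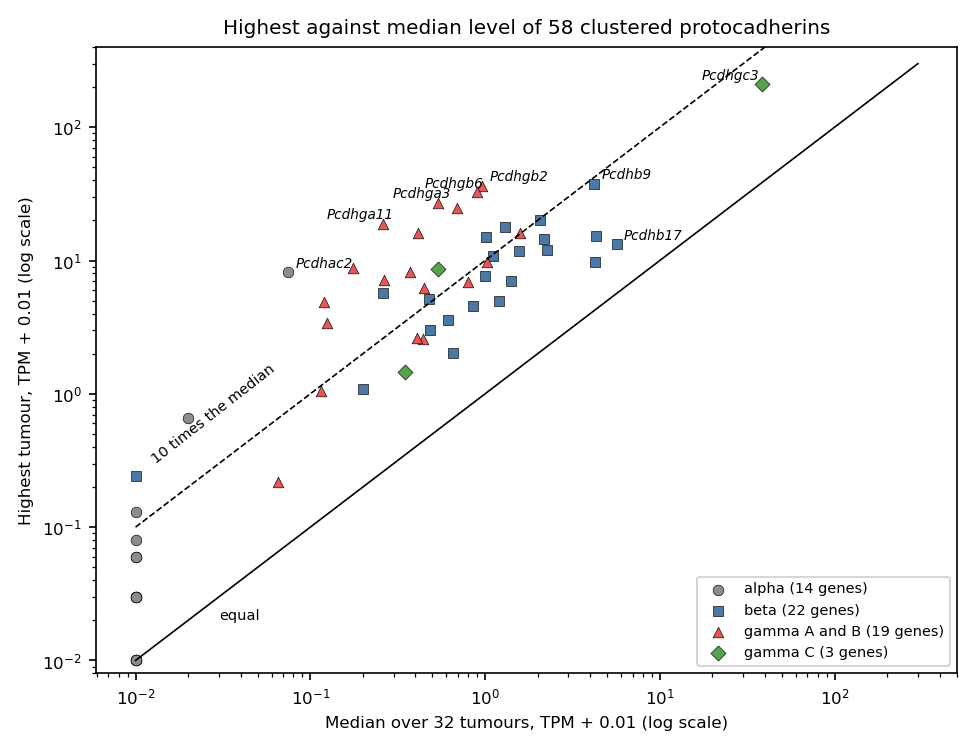
Highest level in any tumour against the median over 32 tumours for each of the 58 genes, both as TPM + 0.01 on log axes, with marks for alpha, beta, gamma A and B, and gamma C genes. Lines mark equality and 10 times the median. 13 of the 19 gamma A and B genes lie above the upper line, and Pcdhgc3 stands alone at the top right at 209.4 TPM.

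Which gamma A or B gene was used differed from tumour to tumour. Of the 31 tumours with at least 100 counts over the 19 genes, 10 different genes came first, and in 9 tumours the first gene held at least 50% of the sum. These 9 were 6 Ecad females and 1 tumour of each other group. In ΔEcad male 6, Pcdhga3 was at 27.2 TPM and held 81.3% of the sum, or 80.8% of the counts (95% Wilson interval 78.9 to 82.5%, covering counting error only). In Ecad male 7 it was Pcdhga7, at 24.6 TPM and 72.3% of the sum. In Ecad female 7 it was Pcdhgb6, at 32.7 TPM and 58.7%, and in ΔEcad female 6 Pcdhga6, at 16.2 TPM and 51.6%. The other 5 were Ecad females led by Pcdhgb2. Pcdhga7, and below Pcdhga11, fall outside the rule for named genes and were named after their values were seen.

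Other tumours used a few genes side by side. Ecad female 1 held Pcdhga6 at 16.1, Pcdhga7 at 14.9 and Pcdhgb6 at 14.7 TPM. ΔEcad male 7 held Pcdhga10 at 15.96 and Pcdhgb1 at 9.5 TPM, ΔEcad male 4 Pcdhga11 at 18.9 TPM with Pcdhga7 at 5.87 TPM, and ΔEcad female 3 Pcdhgb6 at 20.8 with Pcdhgb1 at 8.49 and Pcdhga6 at 7.79 TPM. ΔEcad female 5 held Pcdhgb2 at 17.4, Pcdhgb4 at 8.71 and Pcdhga11 at 7.32 TPM. Still others showed low levels of nearly all 19 genes, as in ΔEcad female 2, where the first gene, Pcdhgb6, was at 0.89 TPM and 13.1% of the sum. The first and second genes were neighbours in the genome in 1 of 31 tumours (Pcdhga6 and Pcdhga7 in Ecad female 1), where neighbours make up 18 of all 171 pairs of the 19 genes.

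**Figure D3:**
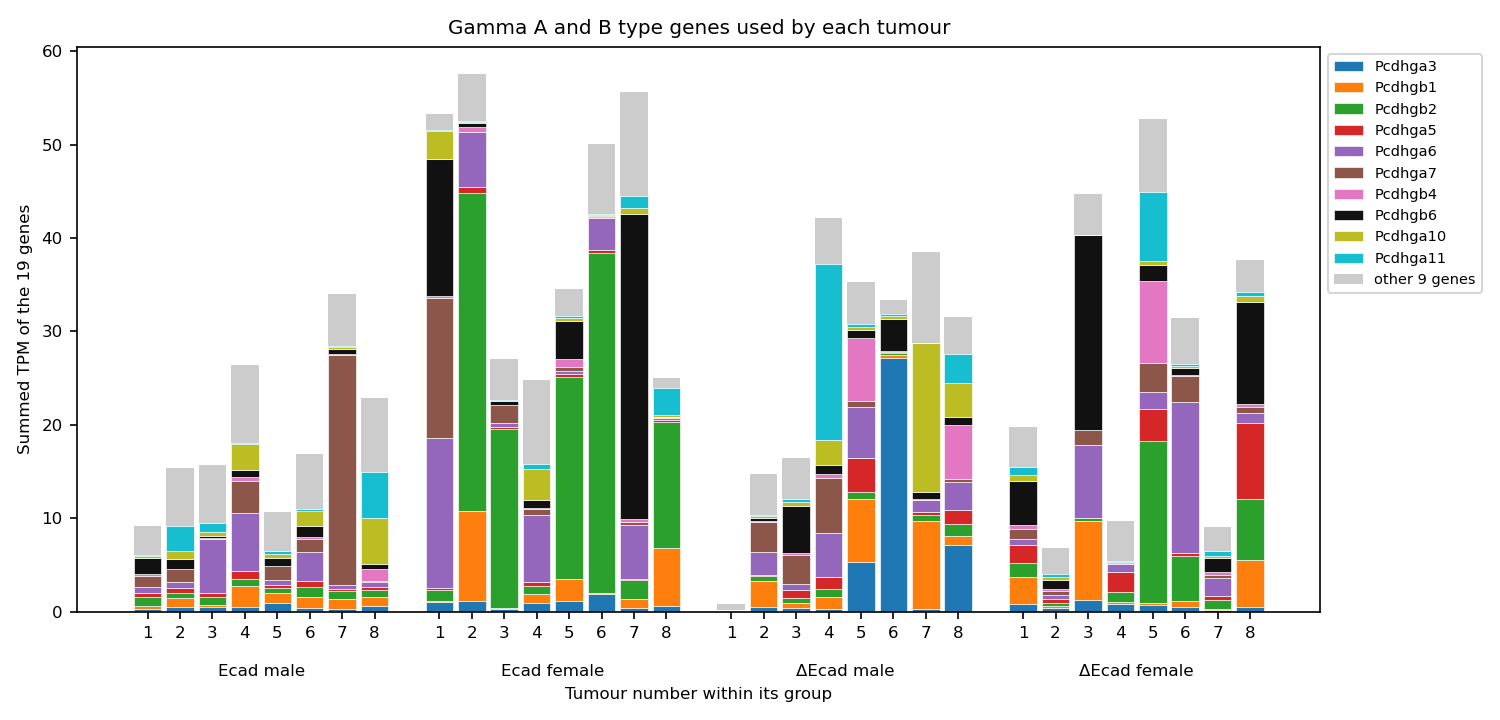
Summed TPM of the 19 gamma A and B genes in each of the 32 tumours, by group and tumour number, with colours for the 10 genes that reached 8 TPM in any tumour and grey for the other 9. Pcdhgb2 fills most of the bar in 5 Ecad females, single other genes fill it in Ecad male 7 (Pcdhga7) and ΔEcad male 6 (Pcdhga3), and ΔEcad male 1 has almost none, at 0.82 TPM.

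The effective number of gamma A and B isoforms had a median of 5.40 over the 31 tumours and ran from 1.49 in ΔEcad male 6 to 14.1 in ΔEcad female 2. Its median was 2.62 in Ecad females (range 1.84 to 5.40), 5.64 in ΔEcad females (3.30 to 14.1), 6.78 in ΔEcad males (1.49 to 7.99) and 8.03 in Ecad males (1.87 to 12.1). Pcdhgb2, the gene by which the family was taken up, led in 5 of the 6 Ecad females with a leading gene. The low effective number in Ecad females is therefore no independent result. Marker levels also differed between tumours with and without a leading gene, of which the former were mostly Ecad females. The score of the 6 keratinocyte genes had a median of -2.88 (range -5.00 to 8.37) in the 9 tumours with a leading gene and of 6.19 (-4.27 to 11.2) in the 22 without. In the same sets of tumours, the median scores were 5.02 and 6.81 for macrophage, 5.84 and 7.52 for fibroblast, 3.77 and 4.79 for endothelial, 2.76 and 3.58 for Schwann cell and -2.57 and -1.96 for neuronal genes. Skeletal muscle genes scored 5.08 and 5.48, whereas melanocytic genes went the other way, at 10.9 and 10.3. Ranges of tumours with and without a leading gene overlapped for every list. The part of these markers in the use of a leading gene was not tested.

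Pcdhgb2 (ENSMUSG00000102748) runs from 37689828 to 37841873 on the plus strand of chromosome 18, of which 2763 of 4882 exon bases are its own. In Ecad females its level was 1.13, 34.0, 19.2, 0.81, 21.6, 36.3, 1.97 and 13.48 TPM in tumours 1 to 8. In Ecad males it was 1.03, 0.45, 0.92, 0.74, 0.48, 0.98, 0.93 and 0.81 TPM. The Ecad females thus fell into 5 tumours above 13 TPM and 3 below 2 TPM, and the lowest of them, Ecad female 4, lay inside the range of the males. The means were 16.1 ± 14.3 and 0.79 ± 0.22 TPM (SD, n = 8 each), and the fitted log2 difference was 4.44. Of the 42 members with a fitted value in this comparison, 25 were higher and 17 lower in females, with a median log2 difference of 0.24, against 0.05 over all 17717 genes. In ΔEcad females Pcdhgb2 was at 17.4 TPM in tumour 5, 6.53 TPM in tumour 8, 4.81 TPM in tumour 6 and 0.33 to 1.57 TPM in the other 5. In ΔEcad males it was at 0.030 to 1.23 TPM. The keratinocyte score of the 5 Ecad females with high Pcdhgb2 was -2.88, 4.45, 5.74, -5.00 and -3.01, and that of the other 3 was -3.05, -4.27 and -3.57. High and low Pcdhgb2 both occurred among Ecad females with keratinocyte scores under -2. The positive scores, 4.45 and 5.74, both belonged to tumours with high Pcdhgb2. A link between the score and Pcdhgb2 was not tested.

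**Figure D4:**
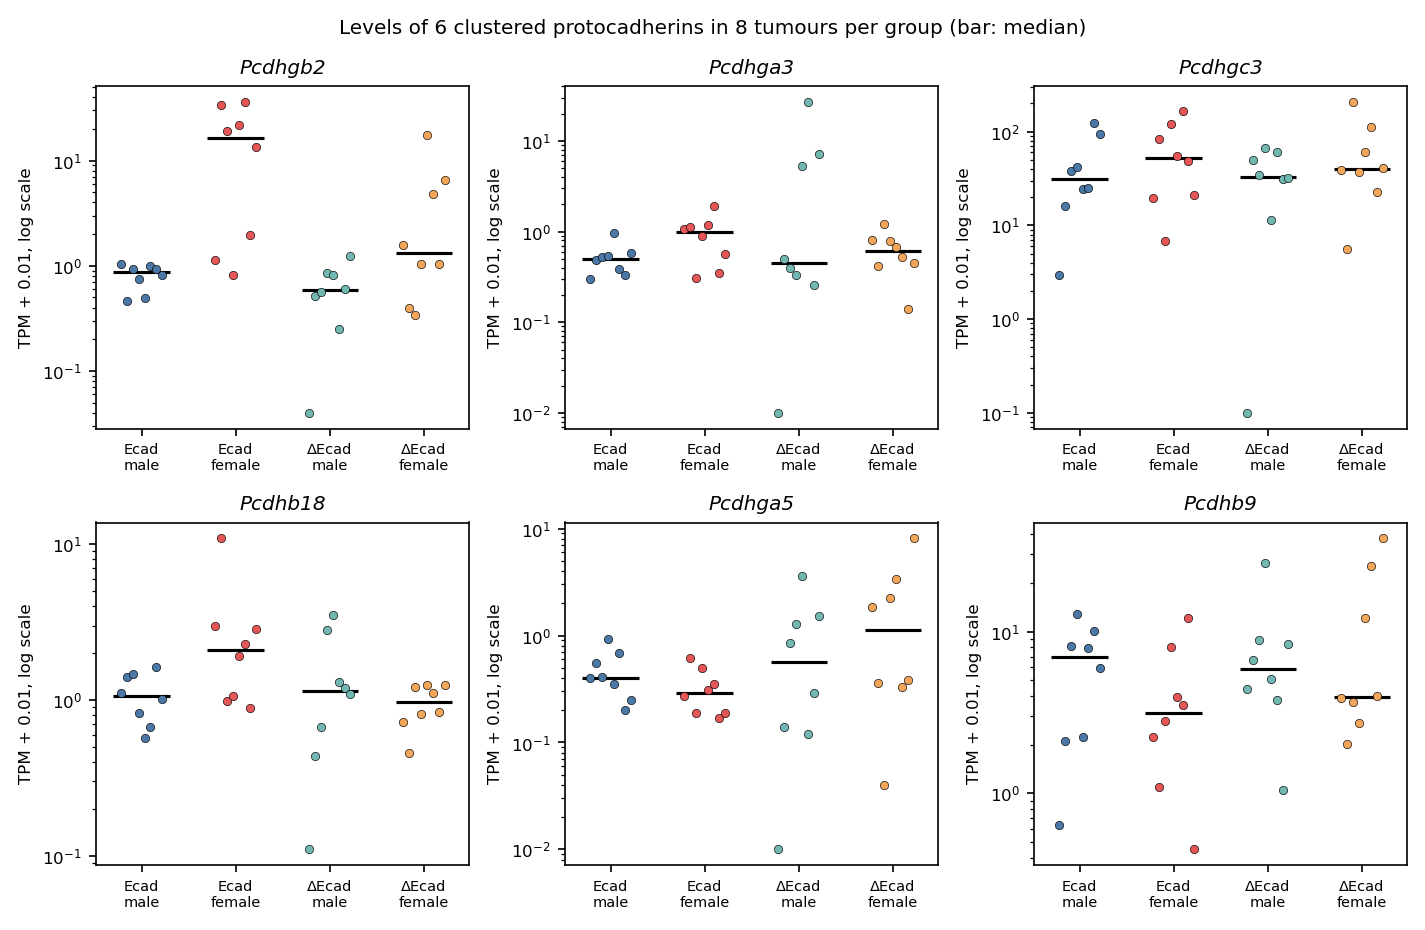
Levels of 6 members in the 4 groups of 8 tumours, as TPM + 0.01 on a log axis, with 1 point per tumour (in order of tumour number) and a bar at the median. Pcdhgb2 splits the Ecad females into 5 high and 3 low tumours, Pcdhga3 is above 5 TPM in 3 ΔEcad males only, and Pcdhgc3 and Pcdhb9 overlap between all groups.

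Other high gamma genes recurred across groups. Pcdhgb6 was at 32.7 TPM in Ecad female 7, 20.8 TPM in ΔEcad female 3, 14.7 TPM in Ecad female 1, 11.0 TPM in ΔEcad female 8 and 5.01 TPM in ΔEcad male 3, with at most 4.69 TPM elsewhere. In Ecad males Pcdhgb6 was at most 1.76 TPM, and its fitted log2 difference between Ecad females and males was 3.03 (not tested). Pcdhga6 reached 5 TPM in 9 tumours of all 4 groups, more than any other gamma A or B gene. Pcdhgb1 reached it in 6 tumours, 2 in each group except Ecad males, at up to 9.69 TPM in Ecad female 2. Pcdhga8 and Pcdhgb8, the latter annotated as a polymorphic pseudogene and both named after their values were seen, were the quietest, at no more than 0.21 and 1.04 TPM.

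ΔEcad male 1 had almost no gamma expression. The 22 genes summed to 1.48 TPM and 119 counts, of which Pcdhgc3 gave 7 counts (0.090 TPM), where the next lowest tumour, Ecad male 1, had 12.65 TPM. In ΔEcad male 1, 9 of 22 gamma genes had no count and 12 had their lowest level of all tumours. Its beta genes summed to 19.7 TPM, the second lowest value. Its library held 28558005 counts, near the low end of the 24036333 to 63923086 over all tumours, and its melanocytic score was 10.2. Why its gamma level was so low was not tested. Genes near the clusters, named here after their values were seen, were present but uneven. Diaph1 was at 16.9 TPM (range of the others 9.39 to 60.99), Wdr55 at 10.4 TPM, below all others (14.3 to 65.4), and Hdac3 at 113.1 TPM, above all others (32.7 to 91.5). Other lists also had their lowest sum of all tumours here: the 17 chromatin genes described below (130.6 TPM), 12 unclustered protocadherins (4.66 TPM), 5 intracellular partners (66.1 TPM), fibroblast genes (43.55 TPM) and neuronal genes (0.52 TPM). Leaving out ΔEcad male 1 called no member in any comparison below.

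Differences between groups were tested with edgeR on the counts of all genes, and a call needed both an adjusted p under 0.05 and a log2 fold change of more than 1 in either direction. The filter on low counts kept 42 of the 58 members. The 16 left out were 13 alpha genes, Pcdhb1, Pcdhga8 and Pcdhgb8. A member that passed only through the group in which it was high had to differ, so counts over these 42 describe them and support nothing. No member was called in any of the 4 comparisons, nor with the library labelled ΔEcad male 2 or with ΔEcad male 7 left out. The comparisons in females share the Ecad females with the sex comparison by which Pcdhgb2 was selected, and the interaction contains that comparison.

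In females, ΔEcad against Ecad, 0 of 42 members were called, where 1.20% of all 17717 genes were (205 higher, 8 lower). At an unadjusted p under 0.05, 13 members (31.0%, a description only) passed, 9 higher and 4 lower in ΔEcad, against 15.3% of all genes. DESeq2 called 5 (Pcdhb7, Pcdhb10, Pcdhga5 and Pcdhgb5 higher, Pcdhb18 lower), where it called 7.23% of all genes, and limma voom called 0, where it called 0.00564%. Over the 42 members, 18 were higher and 24 lower, with a median log2 fold change of -0.18 (-0.02 over all genes).

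The member with the smallest p was Pcdhb18, a beta gene near the end of its cluster. It stood at 0.71, 0.45, 1.20, 0.80, 1.24, 1.1, 0.83 and 1.24 TPM in ΔEcad females 1 to 8 and at 2.99, 10.9, 0.98, 1.05, 1.91, 2.27, 0.88 and 2.85 TPM in Ecad females. The groups overlapped, although all 8 ΔEcad females lay below the Ecad median. Its log2 fold change was -1.60 ± 0.48 (SE), with an adjusted p of 0.0691, and without Ecad female 2 it was -1.05. Pcdhga5 stood at 1.85, 0.35, 0.030, 2.23, 3.37, 0.32, 0.37 and 8.14 TPM in ΔEcad females 1 to 8, against 0.16 to 0.61 TPM in Ecad females. It was thus higher than the Ecad median in 7 of 8 tumours and lowest among the females in ΔEcad female 3 (log2 fold change 2.64 ± 0.81, adjusted p = 0.0759). Without ΔEcad female 3, the lowest tumour of its group, Pcdhga5 was called (2.83, adjusted p = 0.0398). Its highest tumour, ΔEcad female 8, was at 8.14 TPM where the next had 3.37 TPM. The value without ΔEcad female 8 is not given here, so how far the difference rests on that tumour is left unsaid. Pcdhgb5 had a log2 fold change of 2.54 ± 0.84 (adjusted p = 0.0967), which rested on ΔEcad female 4, at 3.39 TPM where the next ΔEcad female had 0.32 TPM. Without that tumour the value was 0.53. Pcdhgb2 gave -1.99 ± 0.77 (adjusted p = 0.173). This value uses the Ecad females by which the gene was selected and is no independent evidence, nor is the call that it gave without ΔEcad female 5, the highest of its group (-3.07, adjusted p = 0.0304). Pcdhgc3 did not differ by more than its error (-0.09 ± 0.74, adjusted p = 0.980).

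In males, ΔEcad against Ecad, 0 of 42 members were called by edgeR, as were 0% of all genes. At an unadjusted p under 0.05, 4 members (9.52%) passed, all higher in ΔEcad, against 10.2% of all genes. DESeq2 called 1, Pcdhga3, where it called 0.119% of all genes, and limma voom called 0 and 0%. Of the members, 28 were higher and 14 lower, with a median log2 fold change of 0.31 (0.11 over all genes). Pcdhga3 was at 0.29 to 0.96 TPM in the 8 Ecad males. In ΔEcad males it was at 0, 0.49, 0.39, 0.32, 5.29, 27.2, 0.25 and 7.12 TPM, so that 3 tumours stood above all Ecad males and the other 5 below 0.50 TPM, ΔEcad male 1 at 0 counts. Its log2 fold change was 3.67 ± 0.91 (adjusted p = 0.365), or 2.28 without ΔEcad male 6. Pcdhgb4 followed (2.71 ± 1.22, adjusted p = 0.463), at 6.78 and 5.71 TPM in ΔEcad males 5 and 8 and at most 0.41 TPM in the other 6, against 0.050 to 1.21 TPM in Ecad males. Without ΔEcad male 8 the value for Pcdhgb4 was 1.74. Pcdhgc4, the third, was at a median of 0.61 TPM in ΔEcad and 0.34 TPM in Ecad males (1.081 ± 0.50, adjusted p = 0.476). The values for Pcdhgb2 and Pcdhgc3 were -0.22 ± 0.75 (adjusted p = 0.930) and -0.25 ± 0.74 (adjusted p = 0.920).

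Between the sexes in ΔEcad, 0 of 42 members were called, where 0.0395% of all genes were. At an unadjusted p under 0.05, 4 members (9.52%) passed, 2 in each direction, against 8.81% of all genes. DESeq2 called 1, again Pcdhga3, where it called 0.135% of all genes, and limma voom called 0, where it called 0.0339%. Of the 42, 23 were higher and 19 lower in females, with a median log2 fold change of 0.16 (-0.06 over all genes). Pcdhga3 was at 0.13 to 1.19 TPM in females, against the males given above, which lie on both sides of that range (-3.39 ± 0.90, adjusted p = 0.484, or -1.94 without ΔEcad male 6). Pcdhgb2 was higher in females by 2.68 ± 0.79 on the log2 scale (adjusted p = 0.484), and 6 of 8 females lay above the male median. Without ΔEcad female 5 its log2 fold change was 1.60. Pcdhga10 was at 0 to 0.69 TPM in females and at 0 to 3.67 TPM in 7 of the males, with 15.96 TPM in ΔEcad male 7, the tumour low in melanocytic genes. Its log2 fold change was -3.21 ± 1.11 (adjusted p = 0.484), or -2.08 without that tumour.

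The interaction of genotype and sex asks whether the genotype difference differed between females and males. No member was called, as were 0% of all genes. At an unadjusted p under 0.05, 6 members (14.3%) passed, against 17.7% of all genes. DESeq2 called 3 (Pcdhb10, Pcdhb18 and Pcdhga3), where it called 6.91% of all genes, and limma voom called 0 and 0%. Pcdhga3 had the smallest p (-4.31 ± 1.21, adjusted p = 0.0607). It was called in 4 of the fits that left out a single tumour (without Ecad female 5, ΔEcad male 3, ΔEcad female 3 or ΔEcad female 4, adjusted p = 0.0277 to 0.0474). The fit without ΔEcad male 6, the highest tumour for Pcdhga3 at 27.2 TPM, was not among these 4. Pcdhb18 gave -2.003 ± 0.67 (adjusted p = 0.0986) and Pcdhb10 3.08 ± 1.084 (adjusted p = 0.118). Pcdhb10 had a median of 2.36 TPM in ΔEcad females, where tumours 8 and 6 stood at 17.94 and 16.5 TPM and the other 6 at 0.52 to 4.35 TPM. Its median was 0.87 TPM in Ecad females (range 0.18 to 3.77), 1.98 TPM in ΔEcad males (0.49 to 3.69) and 3.65 TPM in Ecad males (0.29 to 8.90).

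**Figure D5:**
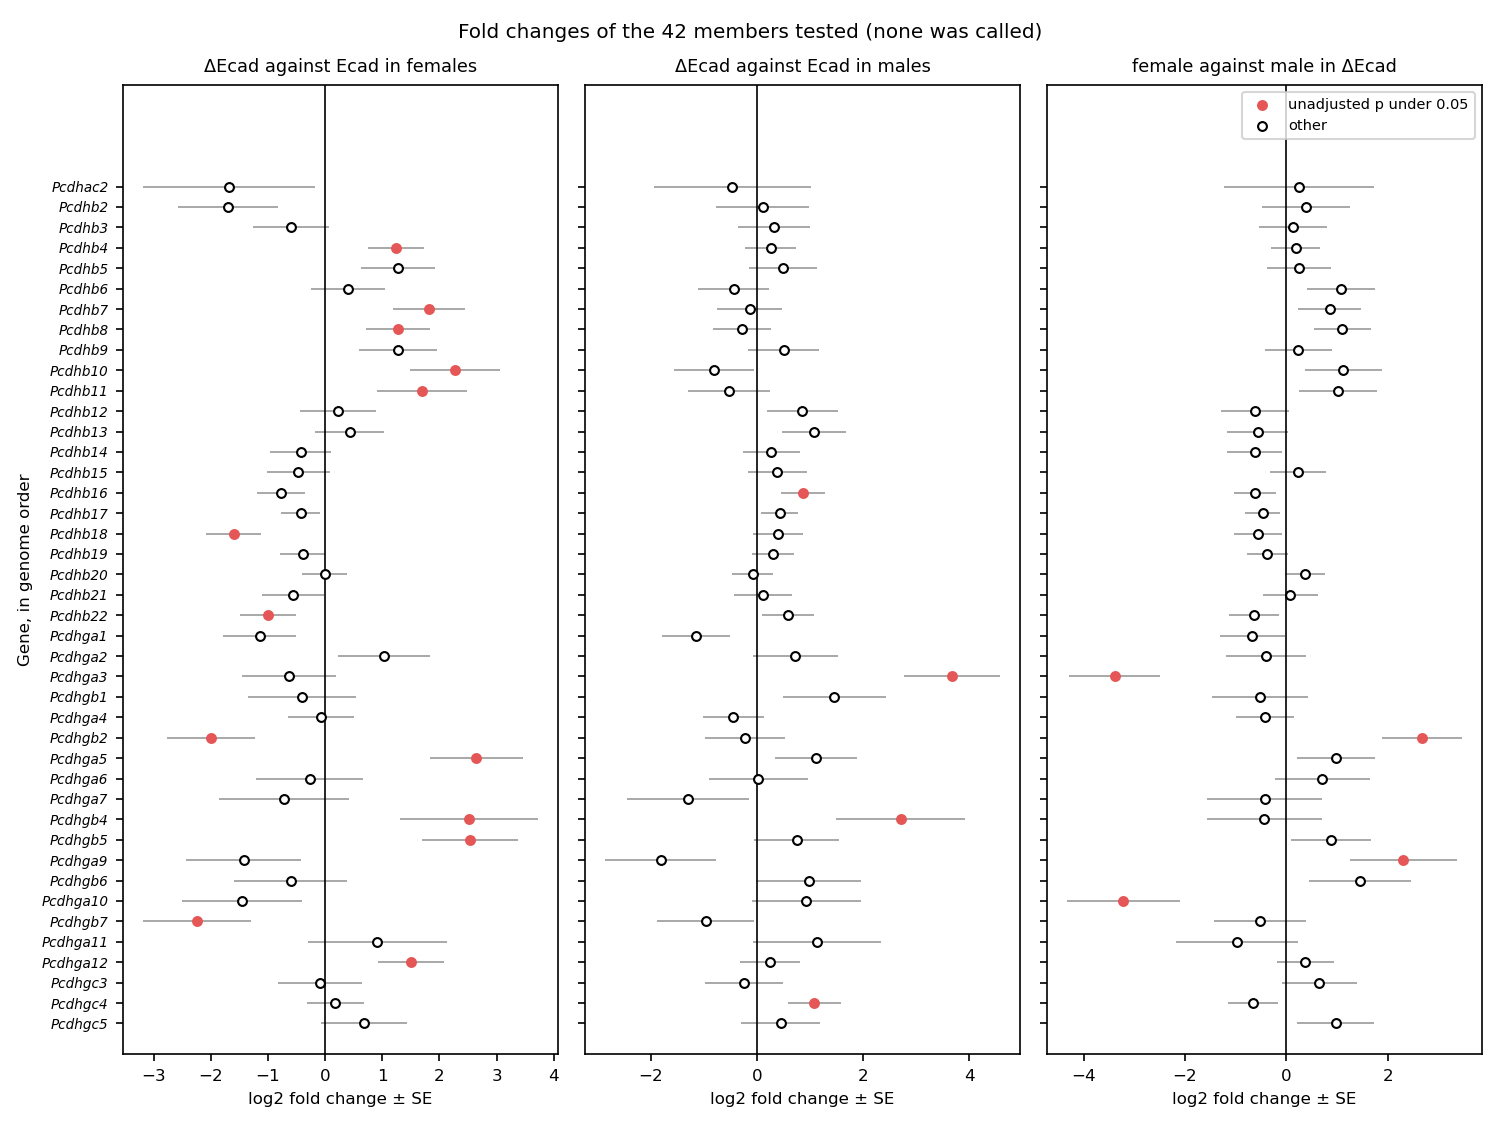
Log2 fold changes ± SE from edgeR of the 42 members tested, in genome order, for 3 comparisons. Red points had an unadjusted p under 0.05 (13 in females, 4 in males and 4 between the sexes in ΔEcad), and no member was called in any panel.

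The other genes tied to this family were counted as whole lists. Of 12 unclustered protocadherins, single genes elsewhere in the genome with a like extracellular part, 9 were tested and none was called. In females 6 were higher and 3 lower in ΔEcad, with a median log2 fold change of 0.31 (-0.02 over all genes). The smallest p values were those of Pcdh1, known from epithelia including the epidermis (1.75 ± 0.49, adjusted p = 0.0562), and of Pcdh19 (2.72 ± 0.79, adjusted p = 0.0638). The mean level of Pcdh1 in females was 11.4 ± 10.4 TPM with ΔEcad and 3.28 ± 2.11 TPM with Ecad (SD, n = 8 each). Its highest tumour, ΔEcad female 2, also had the highest keratinocyte sum of all, 32350 TPM. Among Ecad males, Pcdh1 was highest in Ecad male 3 (25.3 TPM), whose keratinocyte score of 5.50 lay below the group median of 8.16. A link between Pcdh1 and keratinocyte genes was not tested. Pcdh19 reached 25.8 TPM in ΔEcad female 3 and 15.2 TPM in ΔEcad male 7, both of which stood apart above. In males, Pcdh12, known from endothelium, and Pcdh19 came first (1.36 ± 0.55 and 1.83 ± 0.77, adjusted p = 0.442 and 0.446), and between the sexes in ΔEcad, Pcdh9 and Pcdh12 (-1.90 ± 0.79 and -0.94 ± 0.55, adjusted p = 0.536 and 0.629). For the interaction these were Pcdh1 (2.59 ± 0.68, adjusted p = 0.0532) and Pcdh9 (-3.17 ± 1.11, adjusted p = 0.117). DESeq2 called 2 of the 9 in females and 2 for the interaction, where it called 7.23% and 6.91% of all genes.

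Of 17 chromatin regulators that act on the clusters (CTCF, cohesin and its loaders and release factors, SMCHD1, the DNA methyltransferases, SETDB1 and WIZ), all were tested, and none was called or had an unadjusted p under 0.05 in any comparison. In females 16 of 17 were lower in ΔEcad, with a median log2 fold change of -0.15 (-0.02 over all genes). The smallest p values belonged to the cohesin subunit gene Stag2 (-0.58 ± 0.39, adjusted p = 0.540) and to Dnmt3a (-0.53 ± 0.36, adjusted p = 0.544). In males 11 were higher and 6 lower, with a median of 0.08, below the 0.11 over all genes, and the genes with the smallest p were Dnmt3b (-0.49 ± 0.27, adjusted p = 0.525) and Pds5b (0.59 ± 0.42, adjusted p = 0.618). Between the sexes in ΔEcad 14 were higher and 3 lower in females (median 0.21, -0.06 over all genes), and for the interaction 3 were higher and 14 lower (median -0.30, -0.16 over all genes). Between the sexes in ΔEcad the smallest p values were those of Dnmt1 (0.45 ± 0.31, adjusted p = 0.682) and Smchd1 (0.59 ± 0.47, adjusted p = 0.729), and for the interaction Wapl (-0.63 ± 0.45, adjusted p = 0.486) and Pds5b (-0.81 ± 0.59, adjusted p = 0.498). Of 5 genes of proteins that bind or cut protocadherins inside the cell or at its surface (Ptk2, Ptk2b, Fyn, Ret and Adam10), none was called by edgeR. The smallest adjusted p in females was that of Ret, a receptor kinase (2.40 ± 0.85, adjusted p = 0.128), followed by Fyn (-0.27 ± 0.26, adjusted p = 0.702). DESeq2 called Ret in females, where it called 7.23% of all genes. In males these were Adam10, a protease (0.45 ± 0.41, adjusted p = 0.705), and Ptk2 (0.24 ± 0.27, adjusted p = 0.762). Between the sexes in ΔEcad they were Ret (0.76 ± 0.81, adjusted p = 0.817) and Ptk2b (0.47 ± 0.65, adjusted p = 0.874), and for the interaction Ret (2.96 ± 1.16, adjusted p = 0.167) and Adam10 (-0.87 ± 0.58, adjusted p = 0.455).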

How the data were processed

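Per the study's methods and the submitters' processing notes, the authors checked reads with FastQC 0.11.5, mapped them with STAR to GRCm38.p5 (mm10), annotated by GENCODE M13, made the expression matrices with STAR, and deposited raw counts per gene and TPM (counts scaled for gene length and tumour total). The methods name ComBat for batch correction where applicable. Whether these tumours were corrected, and how reads on shared exons or strands were counted, is not given in the sources used here.

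Members, lists and tests were chosen with earlier results of these data known. Symbols and exons were taken from GENCODE M21 (GRCm38), which gave names to 50376 of 50600 identifiers. Nothing states that tumours came from separate mice, so p-values measure the spread between these tumours. Counts of all genes were modelled over all tumours in edgeR 4.0.16 (quasi-likelihood, robust, two-sided, with TMM factors, filterByExpr and Benjamini-Hochberg adjustment, 17717 genes kept). DESeq2 1.42.0 and limma 3.58.1 were alternatives, and the fit was tested on simulated counts. Isoform shares were taken from TPM in tumours with at least 100 counts in the cluster, and a leading isoform held at least 50%. Named genes were Pcdhgb2, the C-type genes, the 5 of each cluster with the highest median TPM, those highest in their cluster in at least 2 tumours, those called, and the 3 with the smallest p per comparison, and for the other lists the 2 with the smallest p. Genes outside this rule were named after their values were seen. A count of 0 allows up to 3 counts, and floors and intervals cover counting error only. Scores used a prior count of 1. No 2 tumours correlated above 0.964, and none was treated as a duplicate. A further gene of the list of binding or cutting proteins is not reported here.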

Additional observations from a re-analysis of the deposited data

Results flagged for a closer look

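In groups of 8 tumours, named members and cluster sums were searched for a tumour far from the other 7 (a gap to the nearest tumour, relative to the group's range, above Dixon's 95% critical value), where the highest count of the group was at least 10. Of 103 groups of values, 19 held such a tumour. Chance alone gives about 1 in 20, but members were named from these same values and sums contain members, so the count cannot be read against that rate. Values are log2 CPM for genes and log2(TPM + 1) for sums.

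ΔEcad male 1 was low in Pcdhgc3 (-1.40, 0.090 TPM, next tumour 11.3 TPM), Pcdhgc5 (-5.19, 0 TPM), Pcdhgb6 (-5.19, 0 TPM), Pcdhb17 (0.621, 0.45 TPM, next 2.73 TPM), the gamma sum (1.31, 1.48 TPM, next 47.97 TPM) and the gamma A and B sum (0.864, 0.82 TPM, next 14.8 TPM).

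The alpha sum stood apart upwards in Ecad female 6 (3.20, 8.18 TPM), ΔEcad female 3 (2.11, 3.31 TPM) and ΔEcad male 6 (1.63, 2.10 TPM), where Pcdhac2 did so as well (2.37, 2.03 TPM). Ecad male 7 was high in Pcdhb22 (3.71, 5.66 TPM) and Pcdhb20 (2.64, 4.99 TPM), and ΔEcad female 3 in Pcdhb20 (3.66, 12.1 TPM, next 3.70 TPM). ΔEcad female 4 was high in Pcdhgb5 (3.20, 3.39 TPM) and low in Pcdhgc4 (-2.56, 0.060 TPM), and ΔEcad female 5 was high in Pcdhgb4 (4.35, 8.71 TPM, next 0.41 TPM) and in the first Pcdha11 gene (-1.44, 0.16 TPM). Ecad male 4 was low in Pcdhgc4 (-1.91, 0.11 TPM) and Ecad male 1 in Pcdhgc5 (-1.37, 0.14 TPM).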

How the results depend on the processing

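No member was called with RLE size factors, with no filter, without robust estimation, with only the tumours compared, with marker scores as covariates, with limma voom, with no limit on the fold change, or with ΔEcad male 2 or ΔEcad male 7 left out. DESeq2 called 5 members in females, 1 in males, 1 between the sexes in ΔEcad and 3 for the interaction. With ΔEcad male 2, ΔEcad male 7 and ΔEcad female 3 left out, 1 member was called in females (Pcdhga5). Leaving out single tumours gave 0 to 1 members in females and for the interaction, and 0 in the other comparisons.

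Pcdhgc3, never called, changed sign: in females with the replicate block (0.22) and marker scores (1.082), in males with limma voom (0.44), and for the interaction with limma voom (-0.93) and with the 3 libraries left out (-0.17). Leaving out single tumours gave -0.52 to 0.41 in females, -0.44 to 0.13 in males and -0.28 to 0.65 for the interaction. The cause was not tested. No other fold change tracked here changed sign.

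Tumours share only a number. The deviations of same-numbered tumours from their group means, over all genes tested, correlated between -0.501 and 0.397. The replicate block called 0 members in all 4 comparisons.

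Tumours with a leading alpha isoform numbered 1 with at least 500 counts and 26 with no limit (main value 4). Those with a leading gamma isoform numbered 9 once the C-type genes were left out (main value 22). With a threshold of 33%, chosen after seeing the data, 15 tumours in place of 9 had a leading gamma A or B isoform. The other settings moved these counts by less than 1.5 times. The depth of a cluster, 717 or more beta counts but as few as 0 alpha counts, limits alpha shares.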

Other observations

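Fold changes of neighbouring beta genes in females had like signs over 2 runs, whose ends were drawn from the signs after they were seen and which were not tested. No gene of either run was called by edgeR, and Pcdhb2 and Pcdhb3, just before the first run, had values of -1.70 and -0.59. From Pcdhb4 to Pcdhb11, all 8 genes were higher in ΔEcad than in Ecad females, with a median log2 fold change of 1.28 (range 0.40 to 2.28). From Pcdhb12 to Pcdhb22, 9 of 11 genes were lower, with a median of -0.43. In males the first run had a median of -0.21 (3 higher, 5 lower) and the second of 0.40 (10 higher, 1 lower). The summed level of the first run was 3.05 to 21.8 TPM in Ecad females (median 7.46) and 7.19 to 116.8 TPM in ΔEcad females (median 14.4), and these groups overlapped. The 2 highest tumours were ΔEcad female 8 (116.8 TPM) and ΔEcad female 6 (60.2 TPM), and the median log2 fold change of the first run was 0.77 without ΔEcad female 8. In Ecad males the same run stood at 3.26 to 32.95 TPM (median 22.3). With keratinocyte and melanocytic scores as covariates the medians in females were 1.62 for the first run and 0.04 for the second. Among Ecad tumours, 7 of the 8 genes of the first run were lower in females and all 11 of the second were higher, values that share the Ecad females with the comparison above.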
